A study of Mus musculus with 16 samples.

Results

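The genes examined were the subunits, activators, inhibitor and assembly factors of the proteasome, taken as the genes whose mouse symbol begins with Psm, a letter from a to g and a digit. Of 52 gene entries with such a symbol, 47 had normalized counts of 10 or more in 4 or more of the 16 libraries, and these 47 are described here out of 13331 genes of the whole table that passed the same filter. RNA was sequenced from ventricle pieces of C57BL/6J mice, which were 10 to 12 weeks old when the experiment began, with 4 mice in each of 4 groups. Transverse aortic constriction (TAC) ties a suture around the aortic arch so that the left ventricle works against a raised pressure, and the sham operation was the same without the suture. Mice of each surgery received intraperitoneal injections from postoperative day 1 to day 60, either of THZ1 at 10 mg/kg with 2 doses a day or of vehicle. THZ1 binds covalently to CDK7, CDK12 and CDK13, kinases that phosphorylate RNA polymerase II, and inhibits them. The groups were Sham-Veh (sham surgery, vehicle), Sham-THZ1 (sham surgery, THZ1), TAC-Veh (constriction, vehicle) and TAC-THZ1 (constriction, THZ1). The labels name no transgene or engineered deletion, each library came from 1 mouse, and the tissue was not sorted by cell type. In such bulk tissue, fewer cells of a type and less RNA per cell cannot be told apart.

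The proteasome degrades proteins that carry ubiquitin chains. Its 20S core is a barrel of stacked alpha and beta rings, in which some of the beta subunits cut proteins, and the 19S cap recognises the ubiquitin chain, unfolds the protein with a ring of ATPases and feeds it into the core. Under interferon, inducible counterparts take the place of the cutting subunits to form the immunoproteasome, and interferon also raises the activator PA28, a ring of the products of Psme1 and Psme2. Heart muscle turns over its contractile proteins through this system, and the growth of the heart under pressure overload has long been studied with respect to it.

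By role, the members were 8 genes of the 20S alpha ring, 7 of the 20S beta ring, 2 inducible beta subunits (Psmb8 and Psmb10), 6 ATPases and 11 other subunits of the 19S cap, 3 chaperones that assemble the base of the cap, 4 activators, 1 inhibitor (Psmf1), 4 chaperones that assemble the core, and Psmc3ip. Psmc3ip, named as an interacting protein of the ATPase Psmc3, acts in meiotic recombination and is no part of the proteasome, and it was kept because its symbol met the rule. The member nearest to the filter was Psma8, a testis form of an alpha subunit, with normalized counts of 12.1 to 34.7. Just outside the filter were Psme2b-ps, with 3.04 to 17.2 and 2 libraries at 10 or more, and Psmb9. Psmb9, the inducible counterpart of Psmb6, had 2 entries on the same strand that overlapped on chromosome 17, at chr17:34318932-34324697 and chr17:34318933-34324709 of NCBIM37. They shared 99.97% and 99.67% of their exon bases. The first entry was listed at 0 in every library and the second lay between 1.34 and 22.9, so no level of Psmb9 can be given. Psmb11 and a second entry for Psmd14 did not reach 10 in any library. Per kilobase of exon, the mean level in Sham-Veh ran from 314 (Psma3) to 1761 (Psma6) normalized counts in the alpha ring without Psma8, from 306 (Psmb3) to 2153 (Psmb1) in the beta ring, from 443 (Psmc2) to 1513 (Psmc3) among the ATPases and from 242 (Psmd11) to 1494 (Psmd7) in the rest of the cap.

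The reads counted in genes came to 21.4 to 35.8 M (mega) a library, taking the smallest step of the normalized counts in a library as 1 read, and the precision of the comparisons was set by the spread between mice. Within groups, the median standard deviation of log2(normalized count + 1) over the 31 subunits of the 20S rings and the 19S cap other than Psma8 was 0.04 in Sham-Veh hearts, 0.05 in Sham-THZ1 hearts, 0.19 in TAC-Veh hearts and 0.09 in TAC-THZ1 hearts. The same median over all 13331 genes was 0.10, 0.09, 0.22 and 0.14. The mice of the TAC-Veh group therefore differed among themselves more than those of the other groups did. Of 8 cardiomyocyte markers all were present, with summed normalized counts of 1.27e+06 to 1.38e+06 in Sham-Veh and 659978 to 934798 in TAC-Veh. The summed level of 7 fibroblast markers was 26833 to 29762 in Sham-Veh, 51523 to 91604 in TAC-Veh and 27895 to 39367 in TAC-THZ1. Among the cardiomyocyte markers 4 of 8 fell with TAC under vehicle and 5 rose with THZ1 in TAC, and among the fibroblast markers 5 of 7 rose and 5 fell in the same comparisons. With TAC under vehicle 4 of 6 general leukocyte markers and 4 of 8 macrophage markers rose and none fell, and with THZ1 in TAC none of either list passed the test by limma. Of 4 B cell markers 2 fell with THZ1 in TAC, and of 6 endothelial markers 2 rose and 2 fell with TAC and 1 rose and 2 fell with THZ1 in TAC. The part of these shifts in the results on proteasome genes was not tested.

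Promoters of 39 members, matched by symbol, were read from RefSeq on GRCm38.p6 as 250 bases before to 50 bases after the start of the gene, and both strands were searched for 4 short motifs. The core of the antioxidant response element, TGACNNNGC, is the site of the Nrf factors that raise proteasome genes when the enzyme is blocked. It was present for 15.4% of members (6 of 39) and 14% of all 27025 genes with a promoter. The core of the interferon-stimulated response element was present for 12.8% of members (Psmb3, Psmd4, Psmd9, Psme1 and Psmg4) and 3.99% of all genes. The core of the gamma-activated sequence, TTCNNNGAA, was present for 7.69% of members (Psmb8, Psmd2 and Psmg1) and 9.55% of all genes. CCAAT was present for 33.3% of members and 41.1% of all genes. A match describes the letters alone, and the absence of a match says only that these letters are not in this window. Members without a promoter in the table were Psma8, Psmb1, Psmb2, Psmb7, Psmc3, Psmd3, Psmd7 and Psmg2.

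The promoter stretches of 4 members that return in the results below are shown 5′ to 3′ on the strand of the gene with the motif in capitals, on GRCm38.p6. The first 2 show the 20S core and the 19S cap, and the last 2 are sites of 30 bases in genes of the immunoproteasome, whose starts lie within longer annotated transcripts. The Psmb5 stretch (chr14:54618026-54618245, minus strand) ends 31 bases before the start and holds an antioxidant response element core at bases -47 to -39. The Psmd4 stretch (chr3:95042615-95042864, minus strand) ends at the start and holds CCAAT on the opposite strand at -95 to -91 and an interferon-stimulated response element core at -80 to -71. The Psmb8 site (chr17:34198088-34198117, plus strand) holds a gamma-activated sequence core at -97 to -89. The Psme1 site (chr14:55578493-55578522, plus strand) holds an interferon-stimulated response element core at bases 10 to 19 after the start. None of the motif matches shown overlapped another.
Psmb5: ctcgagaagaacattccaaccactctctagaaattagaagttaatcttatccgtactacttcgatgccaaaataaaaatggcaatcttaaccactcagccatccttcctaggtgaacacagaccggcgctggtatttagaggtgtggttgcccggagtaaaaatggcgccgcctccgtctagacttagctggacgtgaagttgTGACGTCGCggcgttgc
Psmd4: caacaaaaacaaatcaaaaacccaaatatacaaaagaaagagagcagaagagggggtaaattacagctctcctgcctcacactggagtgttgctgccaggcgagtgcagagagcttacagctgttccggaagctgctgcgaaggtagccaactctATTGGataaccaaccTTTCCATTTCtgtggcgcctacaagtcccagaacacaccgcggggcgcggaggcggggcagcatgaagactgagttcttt
Psmb8: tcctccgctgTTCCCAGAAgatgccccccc
Psme1: cgagctgtgcTTTCGCTTTCccttcccgct

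**Figure D1:**
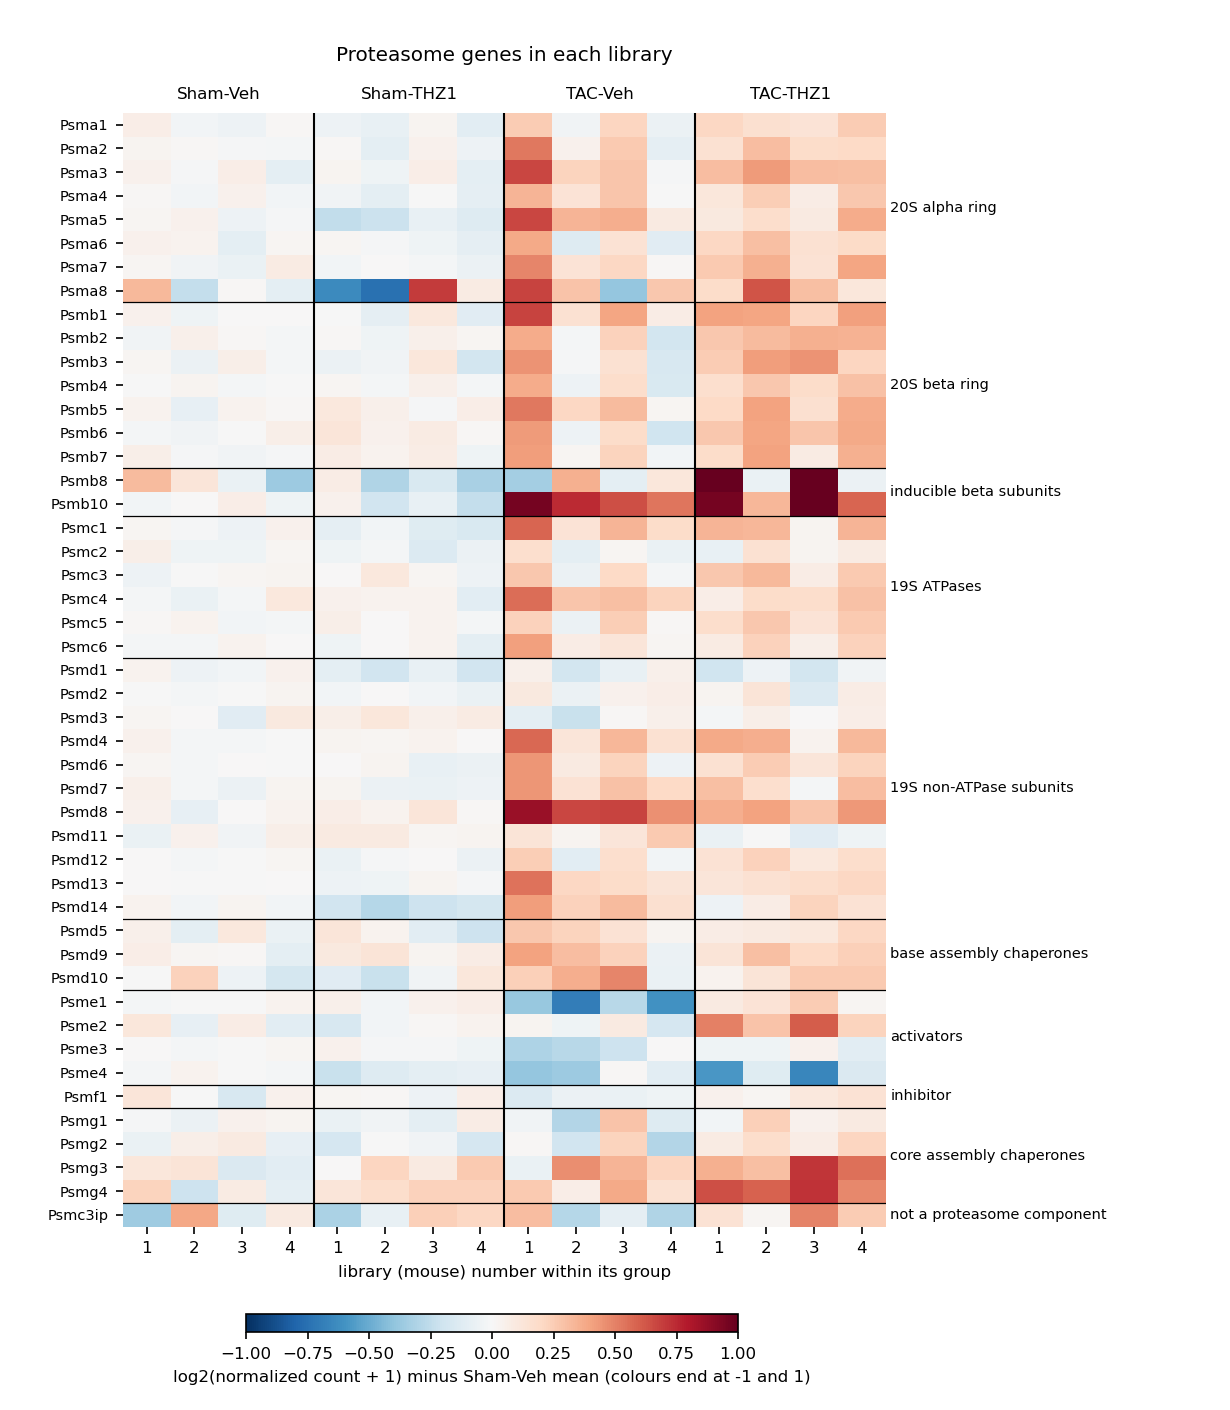
Heat map of the 47 members (rows, ordered by role) in the 16 libraries (columns, by group). Colour is log2(normalized count + 1) minus the Sham-Veh mean of the gene, with the scale ending at -1 and 1. Most 20S and 19S rows are warm in TAC-Veh libraries 1 and 3 and in all TAC-THZ1 libraries, Psme1 is blue in TAC-Veh alone, and Psmb8 is dark red in TAC-THZ1 libraries 1 and 3.

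Pressure overload under vehicle was examined first, by comparing TAC-Veh with Sham-Veh. Of the 47 members, 15 rose (31.9%) and 2 fell (4.26%), where 21.4% of all genes tested were called higher and 23.6% lower. The median log2 fold change of the members was 0.16, beside -0.0030 over all genes, and 37 members had a positive value. The highest log2 fold change was 0.72, and no member was also past the log2 fold threshold of 1 that the study used for TAC, which with the adjusted p took in 8.01% of all genes in either direction. A call here means an adjusted p under 0.05 in limma on log2(normalized count + 1), with Benjamini-Hochberg adjustment over all genes tested.

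By role, in the alpha ring 4 of 8 genes rose, in the constitutive beta ring 2 of 7, among the 19S ATPases 2 of 6 and among the other 19S subunits 5 of 11, and none of these 32 genes fell. All 15 genes of the 20S rings had a positive value, between 0.07 and 0.37 on the log2 scale, and without TAC-Veh library 1, 11 of the 15 did, between -0.03 and 0.27. Examples in the alpha ring were Psma3 (log2 fold change 0.29 ± 0.10, SE), Psma4 (0.19 ± 0.07) and Psma7 (0.21 ± 0.08). Among the ATPases that form the unfolding ring, Psmc4 (0.34 ± 0.07) and Psmc1 (0.31 ± 0.09) rose. Psmd4, the ubiquitin receptor whose promoter is printed above, rose by a log2 fold change of 0.30 ± 0.09. Psmd1 and Psmd2, the large scaffold subunits of the cap, had log2 fold changes of -0.04 and 0.04 and did not pass the test (adjusted p = 0.64 for each, limma). Reads of some subunits may belong to near-identical copies elsewhere in the genome. The share of 40-base exon windows with such a match was 65.2% for Psmb5, 51.0% for Psma5, 28.6% for Psmc1, 18% for Psma3 and 19.8% for Psma4, so these values are uncertain, while for Psmd8, Psmd4, Psmd7, Psmc4 and Psmb10 it was 0.242% or less.

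The rise was uneven over the TAC-Veh mice. The summed normalized count of the 32 genes of the 20S rings and the 19S cap was 61354 to 62878 in Sham-Veh and 63558 to 80582 in TAC-Veh, so the groups did not overlap. Relative to the Sham-Veh mean, the median log2 difference of these genes was 0.42 in TAC-Veh library 1, 0.06 in library 2, 0.22 in library 3 and 0.02 in library 4. Library 1 was thus the highest and library 4 lay within the Sham-Veh values, which ran from -0.02 to 0.02. Without TAC-Veh library 1, 11 members rose (23.4%), near the 20.1% of all genes called higher in that fit, and the median of all 47 was 0.07 in place of 0.16. Without library 4, 22 rose (46.8%) beside 22.9% of all genes, and the median was 0.20. Fitted alone, the 2 groups gave 9 members higher (19.1%) beside 17.2% of all genes. In 10 members the TAC-Veh and Sham-Veh libraries did not overlap and TAC-Veh was the higher, a pattern that 18.2% of all genes showed.

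The largest rise in the 19S cap was in Psmd8, a lid subunit (chr7:29959207-29965692, minus strand, NCBIM37). Its normalized counts were 1870.1, 1715, 1818 and 1855 in Sham-Veh hearts, 1894, 1854, 1977 and 1825 in Sham-THZ1 hearts, 3292, 2886, 2899.8 and 2486 in TAC-Veh hearts and 2338, 2395, 2198 and 2446 in TAC-THZ1 hearts. The 4 groups formed 3 levels, with both sham groups lowest, TAC-THZ1 between them and TAC-Veh, and no overlap between these levels. The log2 fold change was 0.67 ± 0.07 for TAC-Veh over Sham-Veh (adjusted p = 2.86e-06, limma), a rise of 58.6%, and -0.30 ± 0.07 for TAC-THZ1 over TAC-Veh (adjusted p = 0.0054, limma). In sham hearts the log2 fold change with THZ1 was 0.06, and the value in TAC was lower by a difference of -0.35 ± 0.10 (adjusted p = 0.036, limma). That difference lost its call in 12 of 25 alternatives, with adjusted p between 0.0062 and 0.094. They left out Sham-Veh library 2, 3 or 4, any Sham-THZ1 library, TAC-Veh library 2, TAC-THZ1 library 1, 2 or 3, or TAC-THZ1 libraries 1 and 3 together, and the fall with THZ1 in TAC had an adjusted p of 0.051 without TAC-THZ1 libraries 1 and 3 and of 0.068 with the groups fitted alone.

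Psma5, an alpha ring subunit, had the third largest rise. The libraries held normalized counts of 462, 470.1, 440.3 and 454 in Sham-Veh hearts, 384, 394, 434 and 417 in Sham-THZ1 hearts, 725, 578, 587 and 487 in TAC-Veh hearts and 488, 517, 487 and 589.8 in TAC-THZ1 hearts. Both TAC groups lay above their own sham group with no overlap. The log2 fold change was 0.37 ± 0.10 without THZ1 and 0.35 ± 0.10 with it (adjusted p = 0.0060 and 0.018, limma). The call under THZ1 was lost without Sham-THZ1 library 1 (adjusted p = 0.051) or TAC-THZ1 library 4 (0.058). Psmd14, the deubiquitinase that removes the ubiquitin chain at the cap, had counts of 939, 899, 934 and 902 in Sham-Veh hearts, 805, 752, 797 and 812 in Sham-THZ1 hearts, 1229, 1077, 1145 and 1027 in TAC-Veh hearts and 886, 969, 1072 and 1014 in TAC-THZ1 hearts. Sham-THZ1 was the lowest group, and TAC-THZ1 overlapped both Sham-Veh and TAC-Veh. Psmd14 rose with TAC under vehicle by 0.28 ± 0.07 (adjusted p = 0.0027, limma) and under THZ1 by 0.31 ± 0.07 (adjusted p = 0.0045, limma).

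The same surgery was then compared in mice that all received THZ1, TAC-THZ1 against Sham-THZ1, which shares no library with the first comparison. Here 20 of 47 members rose (42.6%) and none fell, where 11.4% of all genes tested were called higher and 12.8% lower. DESeq2 and edgeR on the reads recovered from the table also called no member lower. At an unadjusted p under 0.05, 33 members were past the threshold in either direction in limma. The share of all genes at that threshold was not taken, so this count says nothing particular to the members. The median log2 fold change of the members was 0.23, beside 0.0018 over all genes, and 43 members had a positive value. In 30 members every TAC-THZ1 library lay above every Sham-THZ1 library, a pattern that 15.7% of all genes showed. In 1 member, Psmd11, every TAC-THZ1 library lay below, as in 17.7% of all genes. No member was also past the log2 fold threshold of 1, which with the adjusted p took in 2.03% of all genes in either direction.

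Of the 8 alpha ring genes of the 20S core 5 rose and of the 7 beta ring genes 3 rose, and in 14 of the 15 the groups did not overlap. Their log2 fold changes lay in a narrow range of 0.22 to 0.46, and Psma8 had the highest of these without passing the test. Among the 17 genes of the cap 8 rose. The summed normalized count of the 32 core and cap genes was 59619 to 62302 in Sham-THZ1 and 66418 to 73769 in TAC-THZ1. Relative to the Sham-Veh mean, the median log2 difference of these genes was 0.18, 0.27, 0.14 and 0.26 in TAC-THZ1 libraries 1 to 4, a smaller spread than in TAC-Veh. The count of calls changed with the libraries in the fit, and the cause of this was not tested. That count was 15 without any 1 Sham-Veh library, where 9.98% to 10.2% of all genes were called higher. It was 13, 11 and 10 without Sham-THZ1 library 1, 2 or 4, where 7.94%, 7.94% and 6.92% of all genes were called higher. It was 12 without TAC-THZ1 library 4 (8.57% of all genes), 31 without TAC-Veh library 1 (14.9%) and 31 when the groups were fitted alone (15.4%).

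Of the 15 members that rose with TAC under vehicle and the 20 that rose with TAC under THZ1, 11 were the same genes, which is 73.3% of the first and 55% of the second. They were Psma3, Psma4, Psma5, Psma7, Psmb1, Psmb10, Psmc1, Psmd4, Psmd7, Psmd8 and Psmd14. The same overlap was not counted over all genes, so these shares show nothing particular to the members. Across the 47 members the log2 fold changes of these 2 comparisons had a Pearson r of 0.54, beside 0.62 across all genes tested. Genes are not independent replicates and share these libraries, so this is a description. The values of the 2 comparisons lay farthest apart in Psmb8, Psme1, Psme2 and Psmd8, whose tests follow or stand above.

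**Figure D2:**
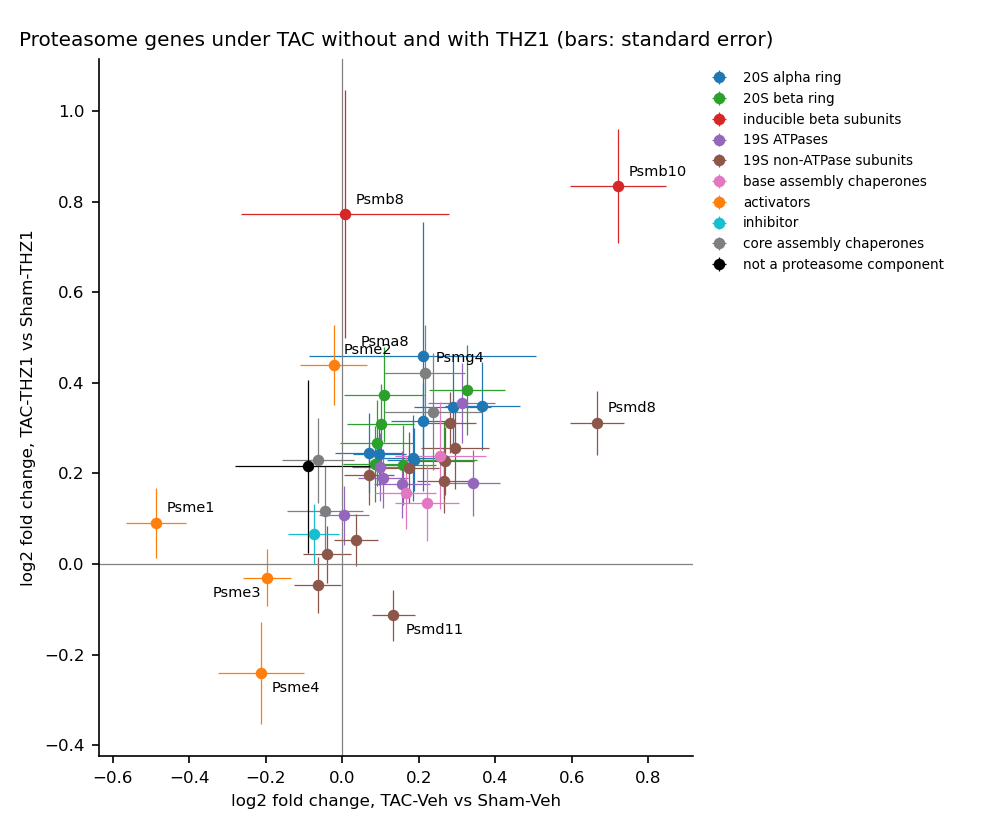
Log2 fold change with TAC under vehicle (x axis, TAC-Veh vs Sham-Veh) against that under THZ1 (y axis, TAC-THZ1 vs Sham-THZ1) for the 47 members, coloured by role, with bars of 1 standard error. Most core and cap genes sit between 0 and 0.4 on both axes, Psmb10 is highest on both at 0.72 and 0.83, and Psme1 lies at -0.49 and 0.09.

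The cutting subunits were given in every library. Psmb5, which carries the chymotrypsin-like activity, had normalized counts of 1485, 1364, 1480.0 and 1463 in Sham-Veh hearts, 1553, 1502, 1432 and 1518 in Sham-THZ1 hearts, 2081, 1670.3, 1799 and 1470.2 in TAC-Veh hearts and 1659.9, 1912, 1614 and 1870.4 in TAC-THZ1 hearts. It rose with TAC under vehicle (log2 fold change 0.27 ± 0.09, adjusted p = 0.019, limma). Under THZ1 the difference was 0.23 ± 0.09 with an adjusted p of 0.063, although the groups did not overlap, and 6 of 26 alternatives called it. The call under vehicle was lost without TAC-Veh library 1, at a log2 fold change of 0.18 and an adjusted p of 0.060, without Sham-Veh library 2 (adjusted p = 0.059) and with the groups fitted alone (0.063).

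Psmb6, with the caspase-like activity, had counts of 2029, 2011, 2048 and 2145 in Sham-Veh hearts, 2235, 2123, 2173 and 2075 in Sham-THZ1 hearts, 2769, 1984, 2333 and 1794 in TAC-Veh hearts and 2480.1, 2709, 2496 and 2676 in TAC-THZ1 hearts. The TAC-Veh mice spanned the range of the other groups, and every TAC-THZ1 library exceeded every sham library. Psmb7, with the trypsin-like activity, had counts of 2459.9, 2349, 2312 and 2341 in Sham-Veh hearts, 2488, 2427, 2496 and 2296 in Sham-THZ1 hearts, 3164, 2399.6, 2754 and 2317 in TAC-Veh hearts and 2683, 3118, 2509 and 3023 in TAC-THZ1 hearts. Neither gene passed the test in any of the comparisons, with adjusted p-values (limma) of 0.051 for Psmb6 and 0.080 for Psmb7 in TAC-THZ1 over Sham-THZ1, which 9 and 5 of 26 alternatives called. Without TAC-Veh library 1, Psmb6 rose with THZ1 in TAC by 0.35 (adjusted p = 0.0023), where the full comparison gave 0.24 ± 0.10 and an adjusted p of 0.067.

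Their inducible counterparts behaved differently from each other. Psmb10, the counterpart of Psmb7, had the largest rise of all members (chr8:108459628-108462292, minus strand, NCBIM37). The libraries held normalized counts of 625, 640.1, 666 and 618 in Sham-Veh hearts, 657, 557, 606 and 540.0 in Sham-THZ1 hearts, 1238, 1068, 995 and 924 in TAC-Veh hearts and 1238, 802, 1285 and 952 in TAC-THZ1 hearts. Every TAC library lay above every sham library, whether or not THZ1 was given. The log2 fold change with TAC was 0.72 ± 0.13 under vehicle (a rise of 64.8%, adjusted p = 2.55e-04, limma) and 0.83 ± 0.13 under THZ1 (78.3%, adjusted p = 7.47e-04, limma), and between TAC-THZ1 and TAC-Veh it was -0.00022. In TAC-THZ1 the counts of libraries 1 and 3 lay above those of libraries 2 and 4, and without libraries 1 and 3 that value was -0.26 (adjusted p = 0.098, limma). Both calls held in all 26 alternatives. Per kilobase of exon, Psmb10 stood at a log2 ratio to Psmb7 of -1.96 ± 0.08 in Sham-Veh hearts, -2.11 ± 0.09 in Sham-THZ1 hearts, -1.39 ± 0.12 in TAC-Veh hearts and -1.49 ± 0.47 in TAC-THZ1 hearts (SD, n = 4).

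Psmb8, the counterpart of Psmb5, did not follow Psmb10 (chr17:34334666-34338399, plus strand, NCBIM37). Its normalized counts were 449.8, 394, 345 and 280.3 in Sham-Veh hearts, 382, 294, 326 and 289 in Sham-THZ1 hearts, 286, 462, 339 and 391 in TAC-Veh hearts and 796, 346, 943 and 347 in TAC-THZ1 hearts. TAC-THZ1 libraries 1 and 3 were the highest of all, and libraries 2 and 4 lay among the other groups. With TAC under vehicle the log2 fold change was 0.01 ± 0.27, and under THZ1 it was 0.77 ± 0.27 (adjusted p = 0.049, limma). The latter rested on those 2 mice. Without TAC-THZ1 libraries 1 and 3 it was 0.11 with an adjusted p of 0.75 (limma), and 16 of 26 alternatives did not call it, among them the fits without any 1 Sham-Veh or Sham-THZ1 library, without TAC-Veh library 3 or 4, and without TAC-THZ1 library 1 or 3. Between TAC-THZ1 and TAC-Veh the log2 fold change was 0.59 ± 0.27 (adjusted p = 0.11, limma). It was called without TAC-THZ1 library 2 (0.81) or 4 (0.81), and with all libraries by DESeq2 on recovered reads (0.72, adjusted p = 0.029). Per kilobase of exon, the log2 ratio of Psmb8 to Psmb5 was -2.63 and -2.34 in TAC-THZ1 libraries 1 and 3 and between -4.43 and -3.29 in the other 14 libraries.

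Genes that interferon induces were high in the same 2 mice. Tap1, the peptide transporter of antigen presentation that neighbours Psmb8 and Psmb9 in the genome, had normalized counts of 1013, 262, 1133 and 313 in TAC-THZ1 and 224 to 431 in the other 12 libraries. The transcription factor Irf1 stood at 1613, 722, 1824 and 658 in TAC-THZ1 and at 443 to 811 elsewhere. Over a list of 10 interferon-inducible genes the summed counts were 12879, 4089, 14222 and 4469 in TAC-THZ1 and 2705 to 6858 elsewhere. Of these 10 genes 2 rose with THZ1 in TAC and none fell, where 15.1% of all genes tested were called higher. With TAC under vehicle 2 fell, where 23.6% of all genes were called lower. Interferon gamma itself (Ifng) was listed at 0 in 13 libraries and at no more than 1.98 in the others.

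White blood cell markers moved with the same libraries in part. The summed counts of 4 neutrophil markers in TAC-THZ1 libraries 1 to 4 were 7030, 938, 3023 and 204, against 49.9 to 537 elsewhere, and 2 of the 4 rose with THZ1 in TAC. Those of 6 general leukocyte markers were 3299, 1705, 3497 and 1948 in TAC-THZ1 and 1689 to 3677 elsewhere. For 8 macrophage markers they were 13807, 6988, 10412 and 8011 in TAC-THZ1 and 6476 to 11042 elsewhere. For 4 B cell markers they were 39.3, 56.0, 57.8 and 94.0 in TAC-THZ1 and 45.3 to 124 elsewhere, with library 1 lowest and library 4 highest in TAC-THZ1. Of 7 T cell markers only Cd4 passed the filter on low counts, and the 7 summed to 38.2 to 52.1 in TAC-THZ1 and 24 to 66.4 elsewhere. The part of these cells in the level of Psmb8 was not tested. Without libraries 1 and 3, which was examined after their values had been seen, 9 members rose in TAC-THZ1 against Sham-THZ1, where 3.27% of all genes were called higher. These were Psma4, Psma5, Psma7, Psmb1, Psmb10, Psmc1, Psmd7, Psmd8 and Psmd14, with a median over the 47 members of 0.28.

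**Figure D3:**
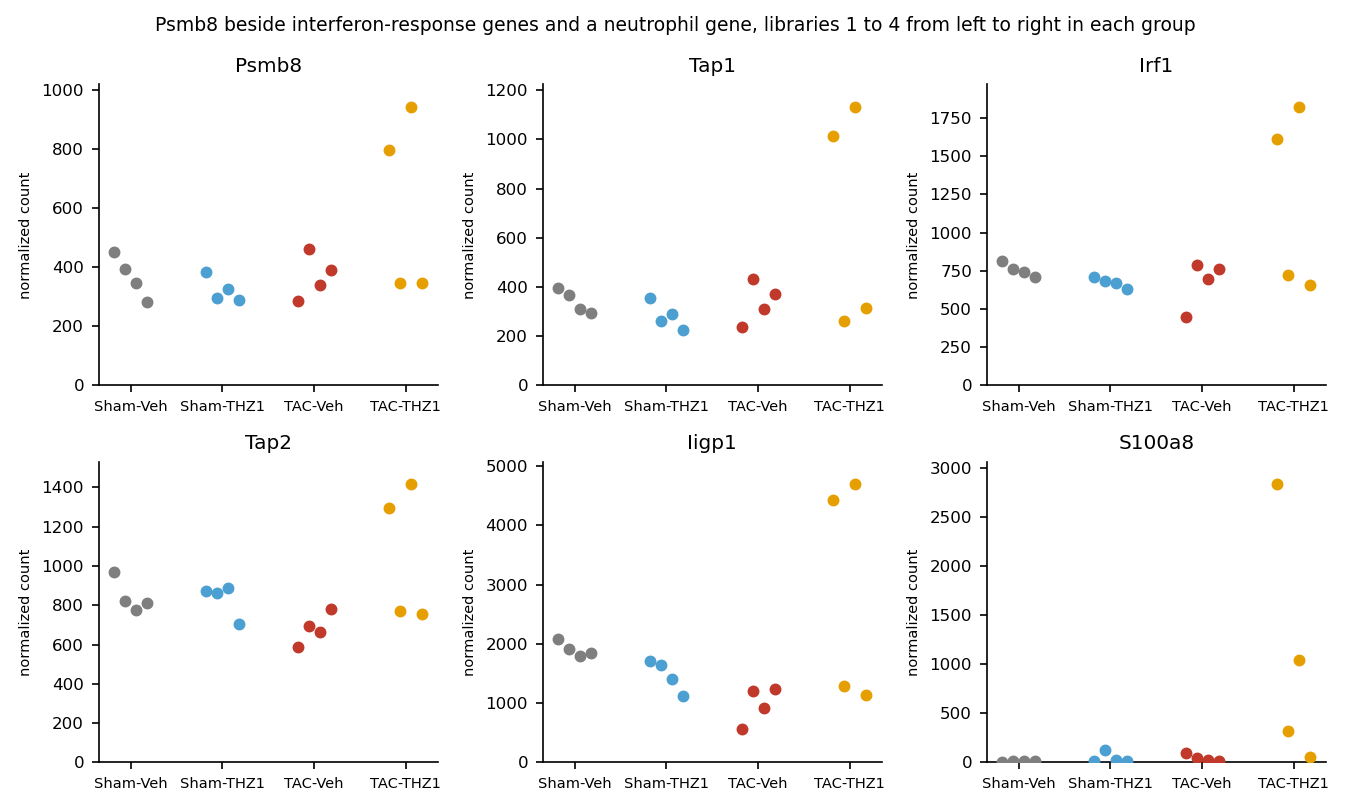
Normalized counts (y axes, linear from 0) of Psmb8, of the interferon-response genes Tap1, Irf1, Tap2 and Iigp1, and of the neutrophil gene S100a8 in each library, with libraries 1 to 4 from left to right in each group. TAC-THZ1 libraries 1 and 3 are the highest in all 6 panels, for Psmb8 at 796 and 943 against 280.3 to 462 in the other 14 libraries.

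Among the activators, which open the core without the cap, 2 of 4 fell with TAC under vehicle and none rose. Psme1, the alpha subunit of PA28, had normalized counts of 2273, 2295, 2298 and 2356 in Sham-Veh hearts, 2388, 2268, 2376 and 2408 in Sham-THZ1 hearts, 1776, 1427, 1904 and 1513 in TAC-Veh hearts and 2447, 2531, 2751 and 2341 in TAC-THZ1 hearts. TAC-Veh was the lowest group, with its highest library far below the lowest of any other group, and TAC-THZ1 overlapped both sham groups. The log2 fold change was -0.49 ± 0.08 with TAC under vehicle, a fall to 0.713 of the sham level (adjusted p = 1.15e-04, limma). With THZ1 in TAC it was 0.61 ± 0.08, a rise of 52.9% (adjusted p = 8.45e-05, limma). In sham hearts THZ1 gave 0.03 ± 0.08, and the difference between the effects of THZ1 in TAC and in sham was 0.58 ± 0.11 (adjusted p = 0.0058, limma). These 3 calls of Psme1 held in every alternative tried for them, including the fit without TAC-THZ1 libraries 1 and 3, where the rise with THZ1 in TAC was 0.57 with an adjusted p of 0.0017. With TAC under THZ1, Psme1 had a log2 fold change of 0.09 ± 0.08 and did not pass the test.

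Psme2, the beta subunit of PA28, lies beside Psme1 on chromosome 14 (chr14:56196960-56200366 for Psme1 and chr14:56206278-56209950 for Psme2, NCBIM37). Its normalized counts were 670.4, 583, 651 and 577 in Sham-Veh hearts, 553, 607, 622 and 635 in Sham-THZ1 hearts, 630.2, 599.9, 659.8 and 552 in TAC-Veh hearts and 878, 756, 939.9 and 722 in TAC-THZ1 hearts. Only TAC-THZ1 stood apart, above all 12 other libraries, and within it libraries 1 and 3 were the highest. Psme2 did not follow the fall of Psme1 with TAC (log2 fold change -0.02 ± 0.09), and rose with THZ1 in TAC by 0.43 ± 0.09 (adjusted p = 0.0023, limma). The difference between the effects of THZ1 in TAC and in sham was 0.46 ± 0.12 (adjusted p = 0.029, limma). Without TAC-THZ1 libraries 1 and 3 the rise in TAC was 0.28 with an adjusted p of 0.039, while that difference had an adjusted p of 0.098 and the rise over Sham-THZ1 one of 0.064. The difference between TAC and sham also lost its call without Sham-Veh library 1 or 3, Sham-THZ1 library 1 or 2, TAC-Veh library 2, or TAC-THZ1 library 1. The share of exon windows of Psme2 with a copy elsewhere was 21.4%, and 4.04% for Psme1. The log2 ratio of Psme1 to Psme2 per kilobase was 1.57 ± 0.13 in Sham-Veh hearts, 1.64 ± 0.10 in Sham-THZ1 hearts, 1.11 ± 0.13 in TAC-Veh hearts and 1.29 ± 0.12 in TAC-THZ1 hearts (SD, n = 4).

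**Figure D4:**
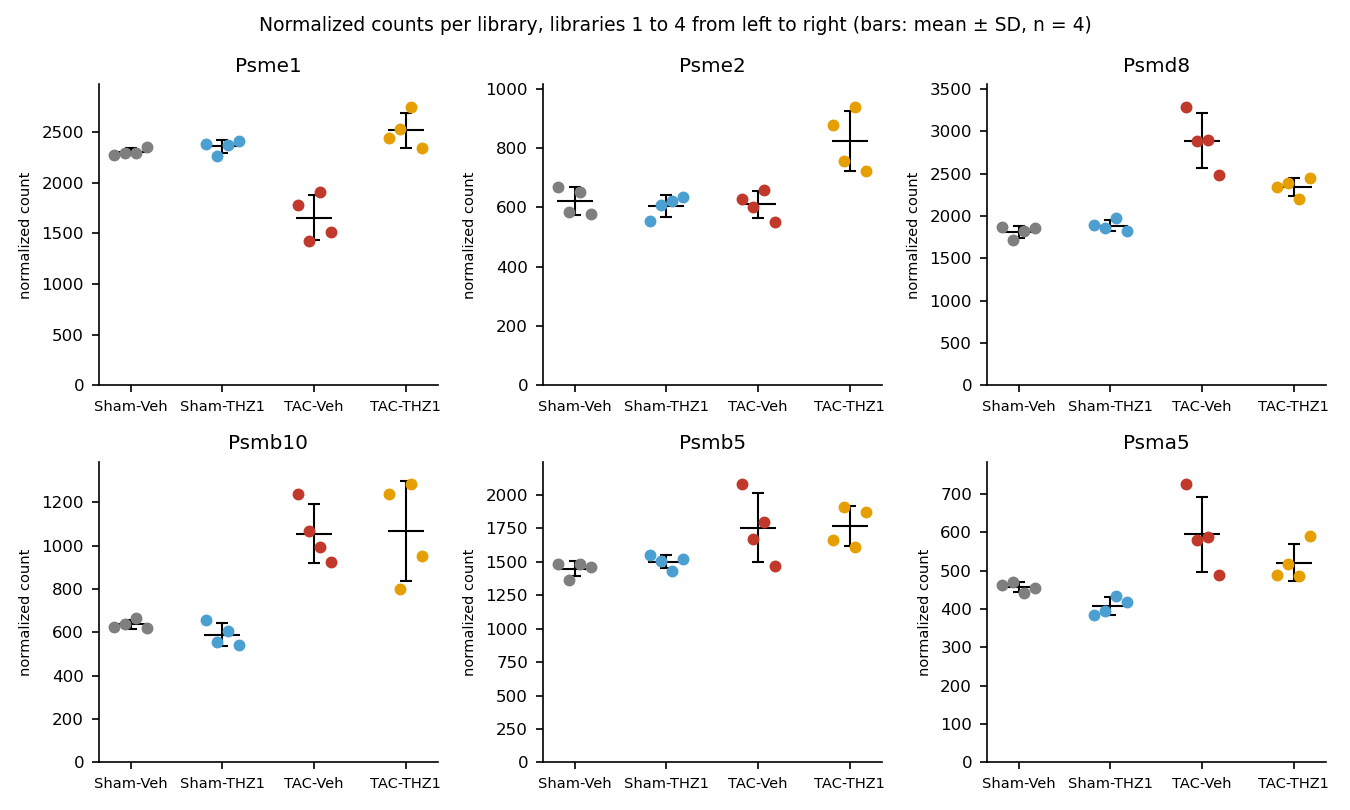
Normalized counts (y axes, linear from 0) of 6 members in each library, with libraries 1 to 4 from left to right in each group and bars of mean ± SD (n = 4). Psme1 is low in TAC-Veh alone, Psme2 is high in TAC-THZ1 alone, and Psmd8 is highest in TAC-Veh and intermediate in TAC-THZ1. Psmb10 is high in both TAC groups, and Psmb5 and Psma5 rose by less.

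Psme3 encodes PA28 gamma, the nuclear form of the activator. Its normalized counts were 1471, 1450.3, 1466 and 1494 in Sham-Veh hearts, 1516, 1455, 1457 and 1429 in Sham-THZ1 hearts, 1186, 1214, 1276 and 1474 in TAC-Veh hearts and 1429.5, 1427, 1516 and 1366 in TAC-THZ1 hearts. It fell with TAC under vehicle by 0.20 ± 0.06 on the log2 scale (adjusted p = 0.018, limma), with TAC-Veh library 4 among the sham values. The call was lost without TAC-Veh library 2, at an adjusted p of 0.054, and with the groups fitted alone, at 0.078. Psme4, the large activator PA200, had counts of 8339.8, 8663, 8424 and 8305 in Sham-Veh hearts, 7219.7, 7698, 7868 and 7982 in Sham-THZ1 hearts, 6442, 6550.4, 8478 and 7837 in TAC-Veh hearts and 5643, 7754, 5373 and 7612 in TAC-THZ1 hearts. TAC-THZ1 libraries 1 and 3, the high ones for Psmb8, were the lowest of all for Psme4. No comparison of Psme4 passed the test with all libraries in. With TAC its log2 fold change was -0.21 ± 0.11 under vehicle and -0.24 ± 0.11 under THZ1, and the latter was -0.00066 without those 2 libraries and -0.33 (adjusted p = 0.045, limma) without TAC-THZ1 library 2. Leaving out the same 2 libraries called the fall under vehicle (adjusted p = 0.041).

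THZ1 in hearts under pressure overload was examined by comparing TAC-THZ1 with TAC-Veh. Of the 47 members 3 rose and 3 fell (6.38% each), where 15.1% of all genes tested were called higher and 14.2% lower. The median log2 fold change was 0.05, beside 0.01 over all genes, and no member was also past the log2 fold threshold of 0.89 that the study used for THZ1, which with the adjusted p took in 5.47% of all genes. In 4 members, Psme1, Psme2, Psmg4 and Psmf1, every TAC-THZ1 library lay above every TAC-Veh library, as in 9.53% of all genes. No gene of the 20S rings passed the test in this comparison, although 13 of the 15 had positive values. The members that rose were Psme1, Psme2 and Psmg4, and those that fell were Psmd8, Psmd11 and Psmd14, all subunits of the cap. Without TAC-Veh library 1, which was high for most subunits, 8 members rose, among them Psma6, Psmb2, Psmb3, Psmb4 and Psmb6 of the rings. In that fit 16.3% of all genes were called higher, near the share of the members. Without TAC-Veh library 3, 6 rose (12.8%) beside 17.6% of all genes. Without TAC-THZ1 libraries 1 and 3, Psme1 and Psme2 alone passed the test, where 12.5% of all genes were called higher.

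Psmg4, a chaperone that pairs alpha subunits as the core is built, had normalized counts of 118, 87.4, 107 and 94.2 in Sham-Veh hearts, 109.7, 114, 119 and 119 in Sham-THZ1 hearts, 121, 106, 132 and 112 in TAC-Veh hearts and 158, 153, 168 and 142 in TAC-THZ1 hearts. All TAC-THZ1 libraries lay above all others. The log2 fold change was 0.40 ± 0.11 over TAC-Veh (adjusted p = 0.011, limma) and 0.42 ± 0.11 over Sham-THZ1 (adjusted p = 0.010, limma). Without TAC-THZ1 libraries 1 and 3 the first was 0.32 (adjusted p = 0.091) and the second 0.35 (adjusted p = 0.11), and with the groups fitted alone the first had an adjusted p of 0.059. The promoter of Psmg4 also held an interferon-stimulated response element core. The other core chaperones, Psmg1, Psmg2 and Psmg3, had log2 fold changes of 0.13 to 0.24 over TAC-Veh and did not pass the test.

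Psmd11, a scaffold subunit of the lid, had counts of 1478, 1598, 1509 and 1607 in Sham-Veh hearts, 1647, 1646, 1571 and 1578 in Sham-THZ1 hearts, 1691, 1574, 1678 and 1857 in TAC-Veh hearts and 1476, 1545, 1434 and 1502 in TAC-THZ1 hearts. TAC-THZ1 lay below both TAC-Veh and Sham-THZ1 with no overlap. The fall from TAC-Veh was 0.19 ± 0.06 on the log2 scale (adjusted p = 0.019, limma), and the difference from Sham-THZ1 was -0.11 ± 0.06 (adjusted p = 0.15, limma). Of all 13331 genes, 10.5% were lower in TAC-THZ1 than in TAC-Veh with no overlap, and 17.7% were so against Sham-THZ1. The fall of Psmd14 in this comparison was 0.18 ± 0.07 (adjusted p = 0.047, limma) and was not called in 18 of 26 alternatives, among them the fits without any 1 Sham library, without TAC-Veh library 1, 2 or 3, or without TAC-THZ1 library 1, 2 or 4, nor that of Psmd11 without TAC-THZ1 libraries 1 and 3 (adjusted p = 0.12) or with the groups fitted alone (0.13).

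In sham hearts no member passed the test for THZ1, by limma, edgeR or DESeq2, where 0.0225% of all genes tested were called higher and 0.045% lower. At an unadjusted p under 0.05, 2 members were past the threshold in limma. The share of all genes was again not taken, so this count too says nothing particular to the members. The median log2 fold change was -0.03, beside 0.0026 over all genes, and the values ran from -0.21 to 0.19. All 8 alpha ring genes had negative values, between -0.17 and -0.01, while 5 of the 7 beta ring genes had positive values. In 4 members, Psma5, Psmd1, Psmd14 and Psme4, every Sham-THZ1 library lay below every Sham-Veh library, a pattern that 5.05% of all genes showed. No member was higher in that way, where 6.29% of all genes were. Fitting the 2 sham groups alone, which had the smaller spread, called Psmd14 lower at a log2 fold change of -0.21 with an adjusted p of 0.021.

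**Figure D5:**
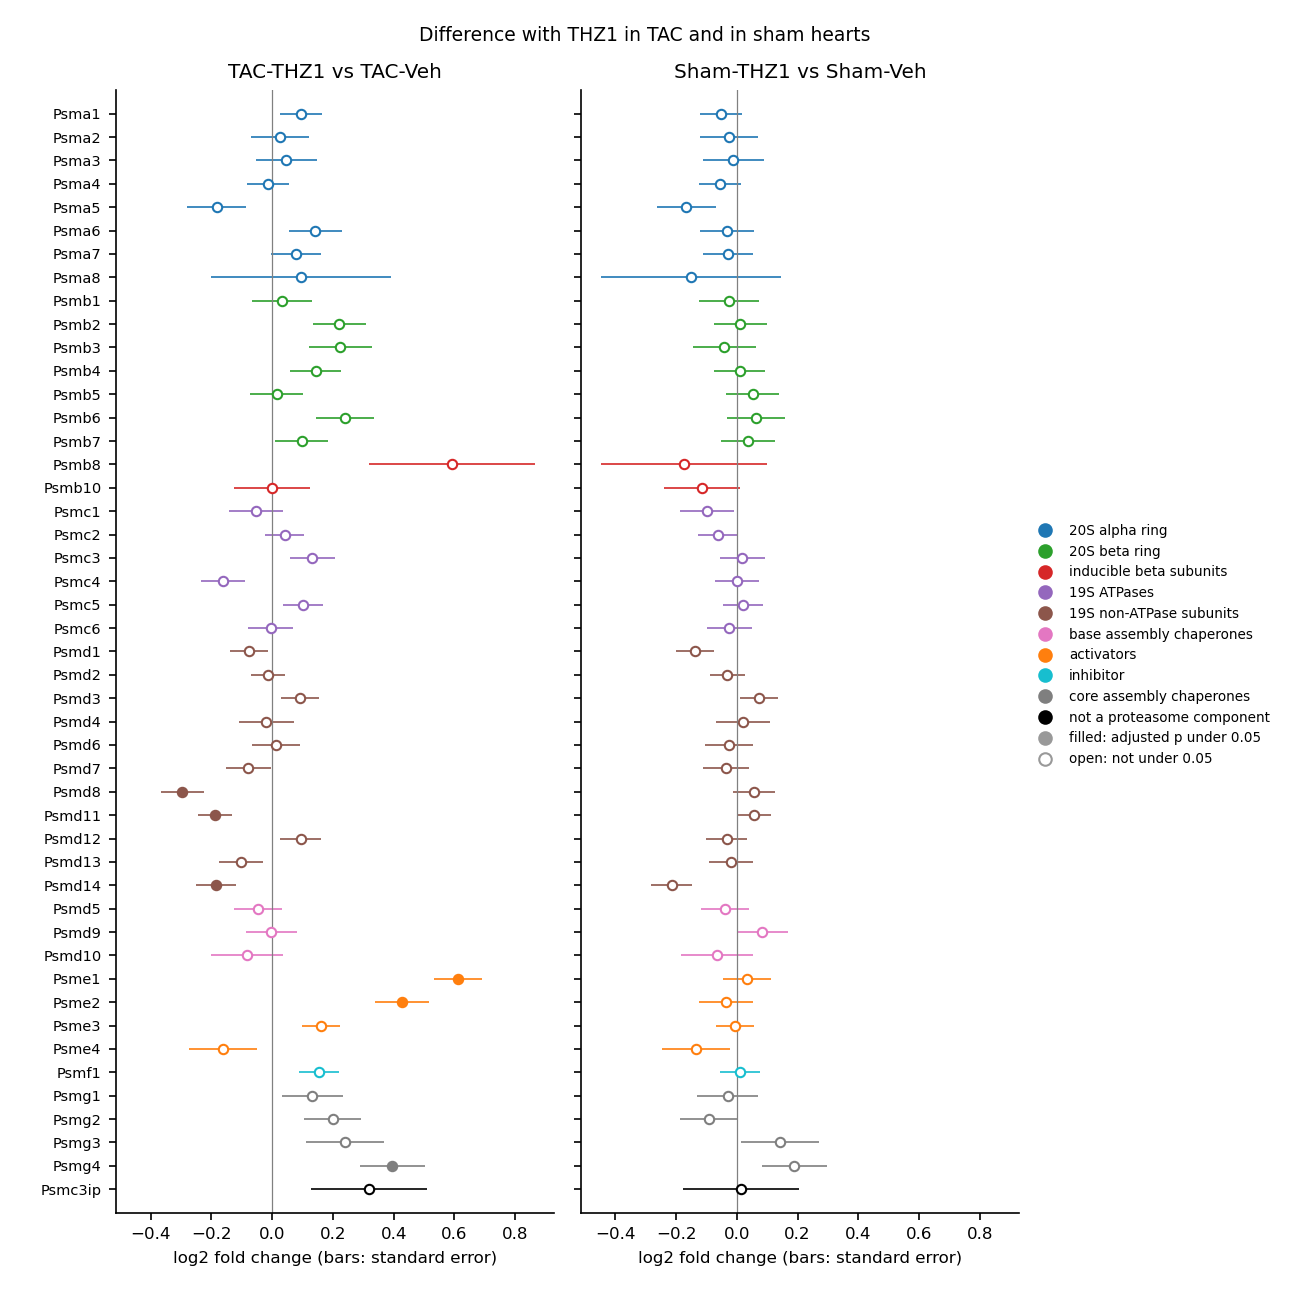
Log2 fold change with THZ1 in TAC hearts (left, TAC-THZ1 vs TAC-Veh) and in sham hearts (right, Sham-THZ1 vs Sham-Veh) for the 47 members, coloured by role, with bars of 1 standard error. Filled points have an adjusted p under 0.05 and open points do not. The 6 filled points are all on the left, from -0.30 for Psmd8 to 0.61 for Psme1.

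The difference between the effects of THZ1 in TAC and in sham passed the test for 3 members, Psme1, Psme2 and Psmd8, where it was called higher for 4.4% of all genes tested and lower for 5.62%. Its median over the members was 0.06, beside 0.02 over all genes, and no member was also past 0.89, which with the adjusted p took in 3.8% of all genes. The base chaperones Psmd5, Psmd9 and Psmd10 had log2 fold changes of 0.17 to 0.26 with TAC under vehicle, of which that of Psmd9 passed the test. The inhibitor Psmf1 had values of -0.07 with TAC and 0.15 with THZ1 in TAC and did not pass the test. Psmc3ip, which is no proteasome gene, passed it in none of the comparisons.

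Beyond the members, 26 of 27 listed genes of the pathway were measured. With TAC under vehicle 4 rose and 5 fell, with a median log2 fold change of -0.02, and with TAC under THZ1 4 rose and 4 fell. Of all genes tested, 21.4% were called higher and 23.6% lower in the first comparison, and 11.4% and 12.8% in the second. Pomp, the chaperone that completes the 20S core, rose with TAC by 0.41 ± 0.09 under vehicle and 0.42 ± 0.09 under THZ1 (adjusted p = 0.0016 and 0.0046, limma). Its normalized counts were 1730.2 to 1864 in Sham-Veh, 2033 to 2809 in TAC-Veh, 1595 to 2023 in Sham-THZ1 and 2208 to 2526 in TAC-THZ1. Shfm1, a small subunit of the cap, rose by 0.36 ± 0.12 and 0.38 ± 0.12. The shuttle factor Ubqln2, which carries ubiquitinated proteins to the cap, fell by 0.69 on the log2 scale under vehicle and 0.71 under THZ1. Uba1, the enzyme that activates ubiquitin, fell by 0.18 and 0.19. Nfe2l1, the factor that drives proteasome genes when the enzyme is blocked, had log2 fold changes of -0.19 and -0.20 and did not pass the test (adjusted p = 0.065 and 0.072, limma). With THZ1 in TAC 3 of the 26 rose and 1 fell, where 15.1% of all genes were called higher and 14.2% lower. Among those that rose was Uchl5, a deubiquitinase of the cap (0.34 ± 0.10). In sham hearts none passed the test by limma. Of 10 listed genes of antigen presentation and its control, 8 were measured. With THZ1 in TAC 2 of them rose, the transporter subunit Tap2 (0.58, adjusted p = 0.018, limma) and Irf1 (0.73, adjusted p = 0.046, limma), and Ifngr1, a receptor chain for interferon gamma, fell by 0.53 on the log2 scale. With TAC under vehicle Ifngr1 rose by 0.79 and the peptidase Erap1 fell by 0.32.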

How the data were processed

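The ventricle RNA of 16 mice was sequenced as single-end reads of 40 bases. Per the submitters' processing notes and the study's methods, reads were aligned to mm9 with TopHat 2.1.1, counted per GENCODE gene with HTSeq in reverse-stranded mode and divided by size factors from DESeq2 in 1 run over all mouse libraries. The authors deposited these normalized counts (unit: signal), and dividing by the smallest step gave whole reads for 100% of values (tolerance 0.01) and size factors of 0.749 to 1.40. Taking a step as 1 read, depth was 21.4 to 35.8 M reads a library (median 28.2).

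Genes with at least 10 normalized counts in at least 4 libraries (13331 of 22372) were tested in R 4.3.3. Log2(normalized count + 1) was fitted by limma 3.58.1 with a mean for each of the 4 groups and a variance trend, and p-values were adjusted by Benjamini-Hochberg over all of them in each comparison. Fold changes are on that scale, which understates changes of low genes. Each library is 1 mouse. Alternatives were other filters, pseudocounts and scalings, the compared groups alone, a replicate block, edgeR 4.0.16 and DESeq2 1.42.0 on recovered reads, and each library left out. The scripts were tested on simulated data.

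The members and lists were chosen with earlier results of these data known. Values in every library were given for the cutting subunits and their inducible counterparts, for Psme1 to Psme4 and, per comparison, for the 3 called members with the largest change in each direction, and any other member could be named with its fold change. Lists were the proteasome pathway, antigen presentation, interferon-inducible genes, and markers of cardiomyocytes, fibroblasts, endothelial cells, leukocytes, macrophages, T cells, B cells and neutrophils. Copies of exon windows were searched for as 40-base exact matches, and promoters came from RefSeq on GRCm38.p6, so no coordinates were carried between builds. Sequences of the proteins were not used here. Some listed genes are not reported here by name.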

Additional observations from a re-analysis of the deposited data

Results flagged for a closer look

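For 3 members the change with THZ1 in TAC hearts was unlike that in sham hearts, by the test of that difference in limma with Benjamini-Hochberg adjustment over all genes. For Psme1 the log2 fold change with THZ1 was 0.61 in TAC and 0.03 in sham, a difference of 0.58 (adjusted p = 0.0058). For Psme2 it was 0.43 and -0.04, a difference of 0.46 (adjusted p = 0.029). For Psmd8 it was -0.30 and 0.06, a difference of -0.35 (adjusted p = 0.036). Of the members, 4.26% were called higher and 2.13% lower for this difference, beside 4.4% and 5.62% of all genes tested. The calls of Psme2 and Psmd8 were lost in 7 and 12 of 25 alternatives. Among 56 sets of 4 libraries of the members given in every library, none held a library that stood apart by the gap-over-range criterion of Dixon at 95%, where chance gives about 1 in 20. That criterion looks for 1 library apart from the rest of its group. It therefore cannot flag TAC-THZ1 libraries 1 and 3, which were high together for Psmb8 (796 and 943, against 346 and 347).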

How the results depend on the processing

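No called member changed sign under any alternative. Of the results on named members that were called in at least 1 fit, 1 changed sign. It was Psmb8 in TAC-THZ1 over TAC-Veh, not called in the reported fit. It turned from 0.59 to -0.068 without TAC-THZ1 libraries 1 and 3. Of the 47 members, 11 changed sign under some alternative for TAC-Veh over Sham-Veh and 15 for TAC-THZ1 over TAC-Veh. The number was 17 for Sham-THZ1 over Sham-Veh, 2 for TAC-THZ1 over Sham-THZ1 and 21 for the difference of the THZ1 effects. None of these members was called for that comparison in the reported fit. For the counts and medians of the members, 354 of 397 alternatives stayed within the spread or within 1.5 times the reported count and 43 moved. The named members gave 38 results that were called in at least 1 fit, and their other results were not counted here. Of the 983 alternatives for these, 876 kept their direction and side of the threshold, 68 lost a call, 38 gained one and 1 changed sign. No scaling moved the median of all genes by more than 0.0366. The cause of a shift below was not tested unless fewer samples or a stricter rule made it.

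Fitted alone, the compared groups gave 9 members higher and 1 lower for TAC-Veh over Sham-Veh, 0 lower for TAC-THZ1 over TAC-Veh, 1 lower for Sham-THZ1 over Sham-Veh and 31 higher for TAC-THZ1 over Sham-THZ1. The shares of all genes in those fits were 17.2% higher and 18.3% lower, 6.12% lower, 1.34% lower and 15.4% higher, in that order. The fold thresholds of the study left 0 members in either direction in each comparison. Without TAC-THZ1 libraries 1 and 3, chosen after seeing the data, the counts were 0 lower for TAC-THZ1 over TAC-Veh, 9 higher for TAC-THZ1 over Sham-THZ1, and 1 higher and 0 lower for the difference of the THZ1 effects. The shares of all genes there were 12.0%, 3.27%, 4.54% and 5.68%, in that order. DESeq2 called 2 members lower for the difference of the THZ1 effects, beside 7.38% of all genes. TAC-THZ1 over Sham-THZ1 had 30 members higher under upper quartile scaling and under quantile normalization, where 14.4% and 11.8% of all genes were called higher.

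With 1 library left out at a time, TAC-Veh over Sham-Veh gave 11 to 22 members higher and 1 to 2 lower (median 0.07 to 0.20). TAC-THZ1 over TAC-Veh gave 3 to 8 higher and 2 to 4 lower (median 0.01 to 0.13), with 8 without TAC-Veh library 1. TAC-THZ1 over Sham-THZ1 gave 10 to 31 higher and 0 to 1 lower (median 0.20 to 0.26). The difference of the THZ1 effects gave 1 to 3 higher and 0 to 2 lower (median 0.03 to 0.14), and Sham-THZ1 over Sham-Veh gave 0 in each fit (median -0.03 to -0.01). The share of all genes called higher ran over 17.8% to 22.9%, 10.2% to 17.6%, 6.67% to 14.9% and 1.85% to 9.32% for the first 4 of these. The share called lower ran over 20.1% to 25.3%, 9.89% to 16.7%, 8.17% to 16.6% and 3.33% to 9.27%. Where 1 group lost a library, the others helped to set the spread.

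No pairing of the mice by replicate number was seen, which does not show that there was none. Over 2000 genes, same-numbered libraries of different groups correlated at -0.385 to 0.147 in their deviations from the group means, with 3 of 24 pairs over 0.1 and 3 of 16 libraries closest to their own number. A fit with the replicate block called 13 members higher and 2 lower for TAC-Veh over Sham-Veh, 3 and 2 for TAC-THZ1 over TAC-Veh, 0 and 0 for Sham-THZ1 over Sham-Veh, 16 and 0 for TAC-THZ1 over Sham-THZ1, and 2 and 1 for the difference. Of all genes that fit called 20.8%, 14.5%, 0.0225%, 10.7% and 3.53% higher, in the same order. It called 23.0%, 13.6%, 0.03%, 12.1% and 4.97% lower. Depth did not limit most members, while Psma8, Psmc3ip and Psmg3 rested on the fewest reads.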
